A study of Caenorhabditis elegans with 58 samples.

Results

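The 86 high-numbered microRNA arms described here come from 43 genes of the nematode Caenorhabditis elegans. They are the arms of every miRNA gene in the deposited table whose number is 355 or higher, except mir-788, mir-794, mir-795, mir-797, mir-1834 and the mir-2209 genes. They make up 86 of the 276 miRNA arms in the deposited table, with numbers from 355 to 5594 and both arms of every gene listed. Among them, 39 arms carry an asterisk, the older mark for the arm thought to be discarded. The members are mostly nematode-specific by description, but the files hold no sequence from another species, so their conservation was not examined here.

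A miRNA is a short RNA cut from a hairpin and loaded into an Argonaute protein, which it guides to messenger RNAs that pair with its seed near the 5′ end. The hairpin yields a 5p and a 3p arm, and usually the loaded arm accumulates while the partner is degraded. miRNA numbers were given in order of registration, so late numbers often belong to miRNAs that deep sequencing found after the abundant families were known. For most members no function is established. In C. elegans, mir-786 acts with its neighbour mir-240 in the intestine to keep the defecation rhythm, and mir-791 acts in neurons that sense carbon dioxide.

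Small RNAs of whole hermaphrodites grown in liquid culture were sequenced in 58 libraries. In the first experiment, 42 libraries came from mixed embryos or from first-stage larvae (L1) held unfed overnight after hatching. Wild-type N2 gave 6 libraries per stage, and 5 strains with edited mir-35 gave 3 per stage each. All edited strains carry the cdb2 allele together with a replacement of mir-35: cdb4 in MCJ11 (seed_rev), cdb6 in MCJ13 (seed_mut), cdb72 in MCJ180 (mut_3'), cdb78 in MCJ191 (mir-82_3') and cdb95 in MCJ211 (seed_rev_no_bulge). In the second experiment, 16 staged libraries gave 2 of wild type and 2 of the ebax-1 null strain CZ9907 (tm2321) at the 2-8 cell, comma and pretzel stages and in starved L1. The labels do not say that replicates of a stage came from separate cultures, so p-values measure the spread between these samples, which may be technical.

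The first experiment was the deeper, with 3447389 to 20402782 miRNA counts per library against 170758 to 4059401 in the staged libraries. The mir-35 family, which marks embryos, held 22.5% to 43.2% of miRNA counts in the wild-type embryo libraries and 0.735% to 3.35% in the wild-type L1 libraries. Levels below are counts per 1000000 miRNA counts (CPM), with each library's total adjusted by its TMM factor, a scaling that sets most arms equal between libraries. Shares are plain percentages of a library's miRNA counts. Whole animals were measured, so fewer cells of a type and less RNA per cell cannot be told apart.

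Most members were scarce, and the abundance lay in a few arms. Together they held a mean of 0.931% of miRNA counts over the 42 libraries, of which the 10 most abundant arms held 0.877%, while 60 arms each had a mean under 0.001%. Of the 86 arms, 43 had at least 1 count in all 42 libraries and 30 had at least 10 counts in all, whereas 4 were never counted (mir-1817_3p*, mir-355_3p*, mir-786_5p* and mir-799_5p*). In wild-type embryos, 2 members had a median of 1000 CPM or more, 8 lay between 100 and 1000 CPM, 15 between 10 and 100, 22 between 1 and 10, 21 above 0 but under 1 CPM, and 18 at 0. In the shallower staged libraries, 4 members were counted in all 16 libraries and 18 in none, and mir-1820_5p and mir-787_3p alone reached 10 counts in every library.

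mir-790_5p was the most abundant member, with a mean of 0.411% of miRNA counts, followed by mir-1820_5p with 0.263%. mir-787_3p held 0.0676%, mir-355_5p 0.0325%, mir-1821_3p 0.0248% and mir-4813_5p 0.0244%. The next were mir-785_3p with 0.0173%, mir-4813_3p with 0.0139%, mir-790_3p* with 0.0117% and mir-356b_3p with 0.0109%. Of the 43 genes, 27 had at least 90% of their counts in 1 arm. Where 1 arm of a gene carried the asterisk, that arm was the less counted in 34 of 39 genes. The exceptions were mir-1829a, mir-1829b, mir-1832a, mir-358 and mir-392, in which the marked arm had more counts.

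The members' mean and median share of miRNA counts was higher in L1 than in embryos. It was 0.587%, 0.637% and 0.957% (lowest, median, highest of 6) in wild-type embryos and 0.808%, 0.931% and 1.54% in wild-type L1. These ranges overlapped through embryo library 5 alone, and the difference of the means was 0.323 percentage points, or 0.219 to 0.375 when each library was left out. In the 15 edited libraries per stage the share was 0.570%, 0.702% and 1.42% in embryos and 0.714%, 0.996% and 2.33% in L1. Without both arms of mir-790 the wild-type share was 0.368%, 0.425% and 0.483% in embryos and 0.345%, 0.631% and 0.790% in L1. A share also depends on the other miRNAs of the library. The mir-35 family alone held 22.5% to 43.2% of counts in wild-type embryos and 0.735% to 3.35% in wild-type L1. The part of that family in the rise of the members' share was not tested.

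**Figure D1:**
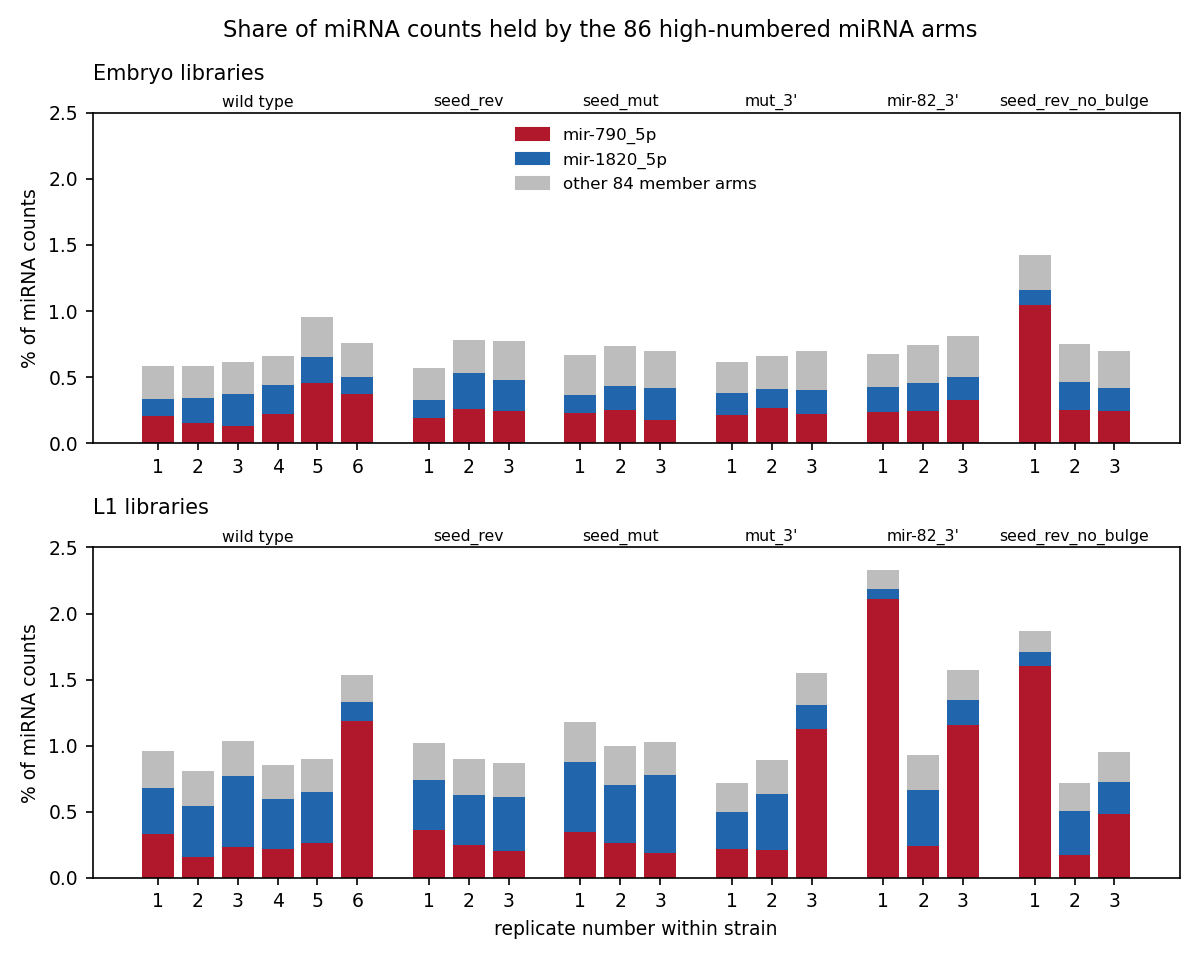
Percent of all miRNA counts held by the 86 high-numbered arms in each of the 42 libraries, split into mir-790_5p, mir-1820_5p and the remaining member arms, by stage, strain and replicate number. The total lies between 0.570% and 2.33%, and the tallest bars are the libraries in which mir-790_5p takes most of the members' counts.

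mir-790_5p varied among libraries of the same stage more than between stages. It held 18.2% to 50.7% of the members' counts in 36 libraries and 72.8% to 90.4% in the other 6. The 6 were wild-type L1 library 6, mut_3' L1 library 3, mir-82_3' L1 libraries 1 and 3, and seed_rev_no_bulge embryo library 1 and L1 library 1. In order of sample identifier, the 42 libraries repeat sets of strains and stages. Each of the 6 sets, called a run here, holds 1 wild-type library per stage. The identifiers break only between the fourth and the fifth run, so the runs are inferred from this order. All 6 high libraries lie in the fourth and the sixth run, and both of these runs also hold libraries in the lower range. The labels name no batch, and the part of run in this level was not tested.

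From embryo to L1 in wild type, 11 members rose and 18 fell of the 59 that were abundant enough to test (edgeR's quasi-likelihood test, Benjamini-Hochberg adjusted p under 0.05 over all 229 arms tested). That is 49.2% of the tested members, against 55.9% of all tested arms, of which 24.9% rose and 31% fell. The median log2 change was -0.28 over the members and -0.12 over all arms. In the mean of the 5 edited strains, 17 members rose and 23 fell, 67.8% against 72.5% of all arms. In neither comparison did the members' share of calls exceed that of all arms.

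The stage changes mostly went the same way in wild type and edited strains. Of the 29 members called in wild type, 28 were called in the same direction in the edited strains, 11 upward and 17 downward, and none in the opposite direction. The 28 are 47.5% of the 59 tested members, against 55% of all tested arms that were called alike in both. A further 12 were called in the edited strains alone, with log2 changes from -1.19 for mir-2208b_5p to 1.03 for mir-392_5p*, and mir-1832a_3p in wild type alone. The difference between the edited and the wild-type change was called for 0 of 59 members by edgeR's quasi-likelihood test, for 0 at an unadjusted p under 0.05, and for 0 by DESeq2, against 0% of all arms. The 28 were selected by their calls in these same libraries, so a common direction was largely set by that choice. Among them, 27 had strain means that moved in the same direction in 6 of 6 strains. L1 and embryo ranges did not overlap in any strain for 10 of the 59 members, 16.9% against 21.8% of all tested arms. mir-2210_5p* and mir-784_5p, among these 10 and among the rises, entered the test mainly through their L1 counts. The exception among the 28 was mir-4814_5p*, whose means moved that way in 5 of 6 strains.

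**Figure D2:**
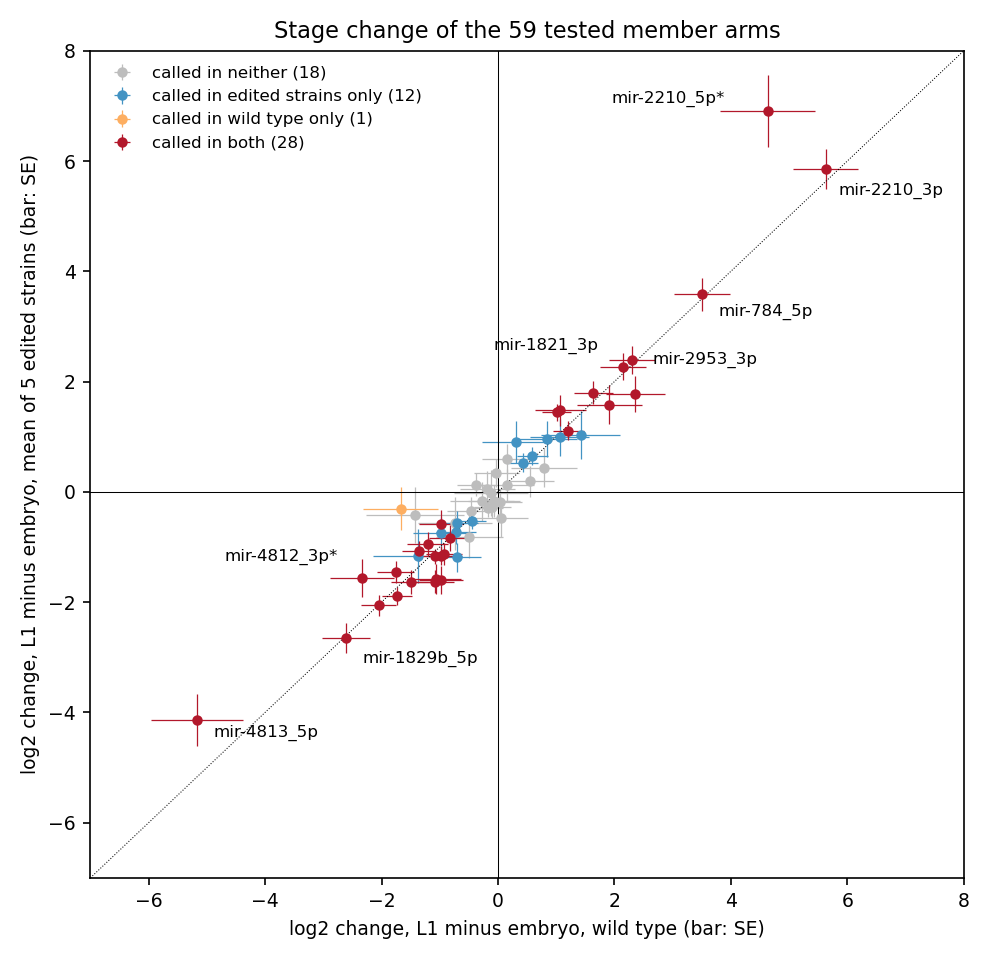
The log2 change from embryo to L1 of the 59 tested members, wild type on the horizontal axis and the mean of the 5 edited strains on the vertical, with standard errors as bars and equality as the dotted line. Most points lie along the line, with mir-2210_3p at 5.63 and 5.85 highest in wild type and mir-4813_5p at -5.17 and -4.14 at the lower end. In the fit mir-2210_5p*, at 0 in every embryo library of the edited strains, had changes of 4.63 and 6.91.

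How the libraries are scaled decides how many members fell. Scaled to the added spike-in RNAs, the median of all arms moved by 0.98 on the log2 scale in wild type and by 0.85 in the edited strains. Under that scaling 20 of the 59 tested members rose and 1 fell in wild type, where 82 of all 229 tested arms rose and 26 fell. In the edited strains 23 members rose and 4 fell, where 103 of all arms rose and 38 fell. All 11 wild-type rises were also called under spike-in scaling, in wild type and in the edited strains. Of the 18 wild-type falls, mir-4813_5p alone was called lower under spike-in scaling in wild type, with mir-1829b_5p, mir-1832a_5p* and mir-1822_5p* joining it in the edited strains. The falls below were measured under TMM scaling, relative to the bulk of miRNAs, and the change under spike-in scaling stands beside most of them.

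mir-2210_3p rose most. Its level was 0.239, 0.614 and 1.67 CPM (lowest, median, highest of 6) in wild-type embryos and 19.0, 34.3 and 72.2 CPM in wild-type L1. Every L1 library lay above every embryo library, and the same held in each of the 5 edited strains. The log2 change was 5.63 (SE 0.56, adjusted p = 5.89e-11 by edgeR's quasi-likelihood test) in wild type, 6.83 under spike-in scaling, and 5.85 (SE 0.36) in the edited strains. The partner arm mir-2210_5p* was at 0 in 4 of 6 wild-type embryo libraries, with 2 counts in all, and at 0.405, 0.921 and 2.59 CPM in L1. The ratio of L1 to embryo levels was 33.6 (95% interval 9.06 to 281, covering counting error only). In the edited strains all 15 embryo libraries were at 0, and L1 was at least 62.5-fold higher, taking 3 counts over the group as the floor. mir-2210_5p* had 10 or more counts in 15 of the 42 libraries, all of them L1, and so entered the test through L1 alone. In the annotation mir-2210 lies in an exon of ZK593.2, on the same strand.

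mir-784_5p, from a gene on chromosome X, rose from 0.120, 0.456 and 0.955 CPM in wild-type embryos to 4.04, 5.74 and 6.35 CPM in L1. The stages did not overlap in any of the 6 strains. The log2 change was 3.51 (SE 0.48, adjusted p = 7.22e-08 by edgeR's quasi-likelihood test), and 3.58 (SE 0.30) in the edited strains. With 10 or more counts in 22 of the 42 libraries, mir-784_5p entered the test mainly through its L1 level. mir-2953_3p, from an intron of F41G3.5, rose from 1.32, 2.97 and 6.03 CPM to 12.4, 14.3 and 21.1 CPM, again without overlap in any strain. Its log2 change was 2.30 (SE 0.40, adjusted p = 6.55e-06 by edgeR's quasi-likelihood test).

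mir-1821_3p was the most abundant member that rose in wild type. It stood at 38.1, 69.99 and 128 CPM in wild-type embryos and at 250, 299 and 571 CPM in L1, and the stages did not overlap in any strain. The log2 change was 2.15 (SE 0.39, adjusted p = 9.93e-06 by edgeR's quasi-likelihood test), and 2.27 (SE 0.25) in the edited strains. Its partner mir-1821_5p* stayed near 1 CPM, with medians of 1.38 CPM in embryos and 1.17 CPM in L1 and a log2 change of -0.07 (SE 0.44). mir-792, within 10 kb of mir-1821 on the same strand of chromosome V, gave mir-792_3p at 3.64, 6.62 and 10.6 CPM in embryos and 11.1, 19.1 and 32.5 CPM in L1. It rose by 1.64 on the log2 scale (SE 0.34), and the stages did not overlap in any strain.

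The mir-789 and mir-791 genes gave the other rises. mir-789-1 and mir-789-2, by their names copies of the same gene, can share reads, so their arms are uncertain each against the other: mir-789-2_3p* rose by 2.36 (SE 0.51), mir-789-1_3p* by 1.91 (SE 0.56) and mir-789-1_5p by 1.21 (SE 0.27) on the log2 scale. mir-789-2_5p had a change of -1.38 that did not pass (adjusted p = 0.125), but passed with the replicate number as a block (-1.32, adjusted p = 0.0487), both by edgeR's quasi-likelihood test. Without wild-type embryo library 4, which held 1.69 CPM of mir-789-1_3p* against a median of 0.102 CPM, the change of that arm was 2.87. mir-791_5p* rose from a median of 10.5 to 23.7 CPM, a log2 change of 1.01 (SE 0.25). mir-791_3p had a log2 change of 1.07 (SE 0.44, adjusted p = 0.0384 by edgeR's quasi-likelihood test) with overlapping stages. That call did not hold with the replicate number as a block (0.93, adjusted p = 0.0879), nor without wild-type embryo library 1 (1.04), 5 (0.86) or 6 (1.03) or L1 library 1 (0.97) or 3 (0.56). The edited strains had a rise of mir-791_3p by 1.48 (SE 0.28). mir-230, the neighbour of mir-791 on the same strand, gave mir-230_3p with a log2 change of 4.05 (SE 0.60) in wild type.

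**Figure D3:**
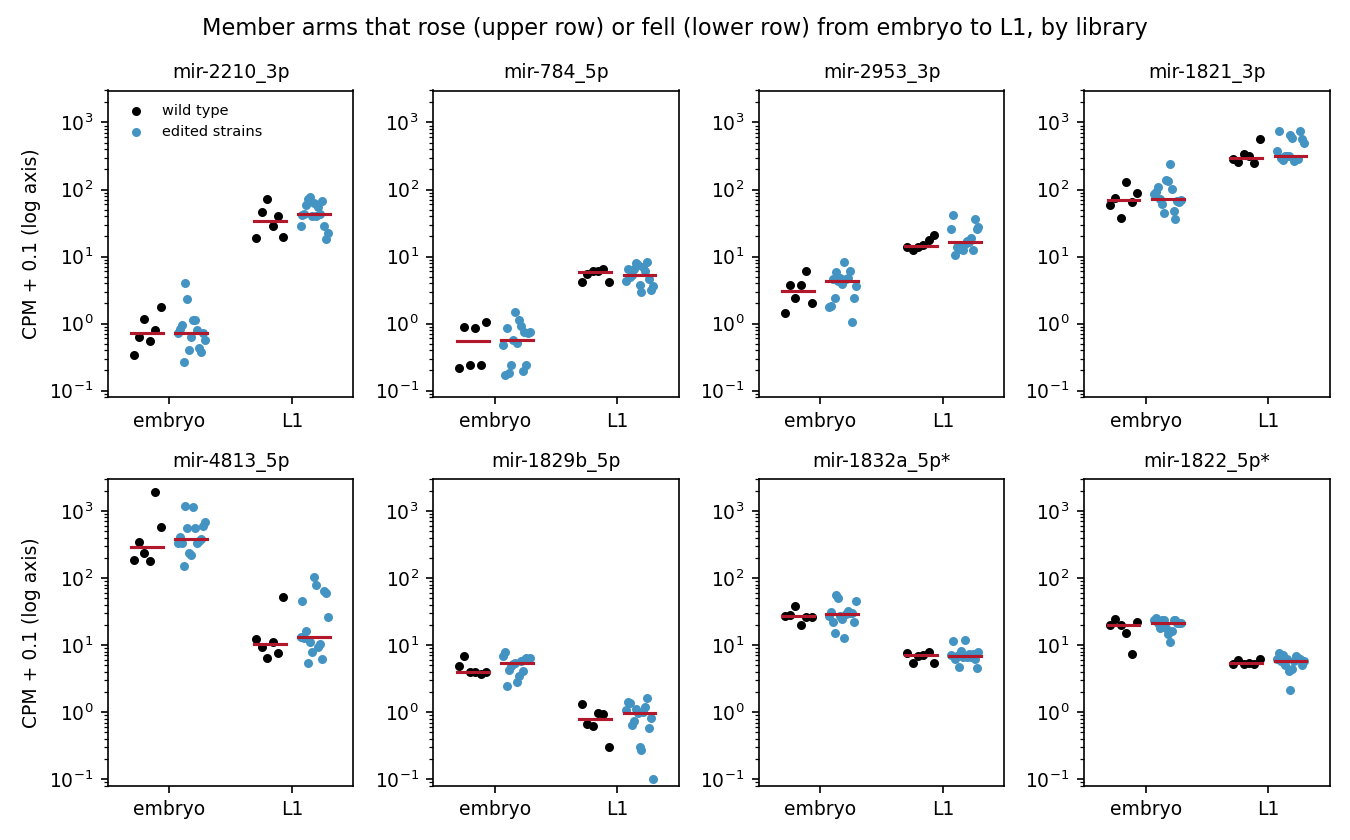
CPM plus 0.1 on a log axis of 4 arms that rose and 4 that fell from embryo to L1, 1 point per library, wild type in black (6 per stage) and edited strains in blue (15 per stage), with the group median as a red line. For mir-2210_3p the wild-type libraries move from at most 1.67 to at least 19.0 CPM, and for mir-4813_5p from at least 180 to at most 51.4 CPM.

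mir-4813_5p fell most. Its gene lies in an exon of idhg-1, which encodes a subunit of mitochondrial isocitrate dehydrogenase. The arm stood at 180, 288 and 1946 CPM in wild-type embryos and at 6.42, 10.2 and 51.4 CPM in L1. The stages did not overlap in wild type or in any edited strain, although embryo library 5 and L1 library 6 each stood far above the other libraries of their stage. The log2 change was -5.17 (SE 0.79, adjusted p = 7.11e-07 by edgeR's quasi-likelihood test), -4.24 without embryo library 5, -5.96 without L1 library 6 and -4.30 under spike-in scaling. It was -4.14 (SE 0.47) in the edited strains. The partner mir-4813_3p, which carries no asterisk either, fell less, from 127, 163 and 294 CPM to 67.0, 105 and 127 CPM. Its log2 change was -0.92 (SE 0.31, adjusted p = 0.0108 by edgeR's quasi-likelihood test) and turned to 0.17 under spike-in scaling.

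The mir-1829 genes, by their names near-identical copies, lie in introns of 3 genes on chromosome X: mir-1829a in gas-1, a subunit of respiratory complex I, mir-1829b in F20D1.3, and mir-1829c in piki-1, a class II phosphoinositide kinase. Reads could be split among them, so each arm's own value is uncertain. mir-1829b_5p fell from 3.64, 3.84 and 6.84 CPM in wild-type embryos to 0.202, 0.702 and 1.20 CPM in L1. The stages did not overlap in any of the 6 strains, and the log2 change was -2.61 (SE 0.42, adjusted p = 1.38e-06 by edgeR's quasi-likelihood test), or -1.62 (adjusted p = 0.0558) under spike-in scaling. mir-1829b_5p fell by 2.65 (SE 0.27) in the edited strains, and by 1.71 there under spike-in scaling.

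The 3p arms of all 3 mir-1829 genes fell under TMM scaling. mir-1829a_3p* was the most abundant of them, at 47.5, 77.4 and 95.5 CPM in wild-type embryos and 26.9, 34.9 and 47.6 CPM in L1. Its highest L1 value just passed its lowest embryo value, with a log2 change of -1.08 (SE 0.22), -0.21 under spike-in scaling. mir-1829c_3p* changed by -1.49 (SE 0.34) and mir-1829b_3p* by -1.09 (SE 0.33) on the log2 scale, or by -0.41 and -0.06 under spike-in scaling. The other 5p arms did not pass the test in wild type: mir-1829c_5p had a log2 change of -0.72 (SE 0.35, adjusted p = 0.0771 by edgeR's quasi-likelihood test), and mir-1829a_5p of -0.28 (SE 0.55), changes of 0.33 and 0.99 under spike-in scaling. mir-1829c_5p passed without wild-type L1 library 3 (-0.97) or embryo library 5 (-0.90), and in the edited strains (-0.72, SE 0.22), where it was 0.33 under spike-in scaling. The mir-1829a_5p level ranged from 7.99 to 98.1 CPM among the embryo libraries and from 19.8 to 57.8 CPM in L1.

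Other intronic members fell as well. mir-1832a_5p*, in an intron of the splicing-factor gene rsp-8 and by its name a copy of mir-1832b, fell from 19.8, 26.6 and 38.3 CPM to 5.26, 6.92 and 7.89 CPM, with no overlap in any strain. Its log2 change was -2.05 (SE 0.30, adjusted p = 2.57e-07 by edgeR's quasi-likelihood test), -1.11 under spike-in scaling. mir-1822_5p*, in an intron of ZK84.2, fell from 7.29, 19.6 and 24.4 CPM to 5.07, 5.25 and 6.07 CPM, also without overlap in any strain, a log2 change of -1.73 (SE 0.26), -0.80 under spike-in scaling. mir-4812_3p*, in piki-1 like mir-1829c, changed by -2.34 (SE 0.55) and mir-1830_3p, in the purine synthesis gene paic-1, by -1.76 (SE 0.32), or by -1.51 and -0.64 under spike-in scaling.

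mir-800_3p, from a gene outside any protein-coding gene, fell from 7.05, 13.4 and 17.2 CPM to 3.63, 5.05 and 6.27 CPM, a log2 change of -1.35 (SE 0.29), -0.38 under spike-in scaling. mir-1832a_3p was called lower in wild type alone, with a log2 change of -1.67 (SE 0.64, adjusted p = 0.0261 by edgeR's quasi-likelihood test), -0.35 under spike-in scaling. Without embryo library 5, in which it stood at 16.3 CPM against at most 5.37 CPM in the other embryo libraries, its change was -1.06 and did not pass (adjusted p = 0.161). mir-4812_5p had a log2 change of -1.07 (adjusted p = 0.0384) that did not pass with the replicate number as a block (-1.04, adjusted p = 0.0546), both by edgeR's quasi-likelihood test. The other falls called in wild type were between -0.82 for mir-1823_3p and -1.21 for mir-790_3p* on the log2 scale under TMM scaling, and under spike-in scaling none of them was called lower.

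By miRNA number, the calls in wild type under TMM scaling, where 24.9% of all arms rose and 31% fell, were as follows. Of the tested arms numbered 784 to 800, 7 of 17 rose and 2 fell, and of those numbered 1817 to 1832, 1 of 19 rose and 10 fell. Of the 8 tested arms numbered 2208 to 2953, 3 rose and 1 fell, and of the 8 numbered 4806 to 4814, 5 fell and none rose. None of the 6 tested arms numbered 355 to 392 was called. Under spike-in scaling 1 of the 18 falls, that of mir-4813_5p, was called lower. The arms of 1 gene share a precursor, and copies such as mir-1829a to mir-1829c could share reads, so these counts are not of independent members.

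In the annotation 12 of the 43 genes lie in an intron of a protein-coding gene on the same strand, 3 in an exon, 4 on the opposite strand of a protein-coding gene only, and 24 in none. Chromosome X holds 17 of the 43. The members with the highest mean share lie mostly outside protein-coding genes: mir-790 on chromosome IV, where a piRNA is annotated over it on the same strand, mir-1820 on chromosome IV, and mir-787 on chromosome X. mir-228, within 10 kb of mir-790 on the same strand, gave mir-228_5p with a log2 change of 1.09 (SE 0.28) in wild type.

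Under TMM scaling the 10 most abundant members were not called between the stages in wild type, except mir-1821_3p, both arms of mir-4813 and mir-790_3p*. Under spike-in scaling the calls of mir-4813_3p (0.17) and mir-790_3p* (-0.02) were lost, and mir-790_5p (1.11, adjusted p = 0.0487), mir-1820_5p (1.71, adjusted p = 0.0330) and mir-785_3p (1.63, adjusted p = 0.0262) were called higher in L1 by edgeR's quasi-likelihood test. mir-790_5p stood at 1354, 2101 and 6640 CPM in wild-type embryos and at 1334, 2071 and 12370 CPM in L1. The L1 libraries other than library 6 lay at 1334 to 2658 CPM, within or just under the embryo range, and the log2 change was 0.31 (SE 0.59, adjusted p = 0.683 by edgeR's quasi-likelihood test). In the edited strains the log2 change was 0.91 (SE 0.38, adjusted p = 0.0300 by edgeR's quasi-likelihood test). That call did not hold without mir-82_3' L1 library 1 (0.72), seed_rev_no_bulge L1 library 1 (0.59), mut_3' L1 library 3 (0.66) or seed_rev_no_bulge embryo library 3 (0.79), and without the fourth and sixth runs the change was -0.24.

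mir-1820_5p stood at 1287, 2065 and 2812 CPM in wild-type embryos and 1517, 3231 and 4203 CPM in L1, higher in L1 in 6 of 6 same-numbered pairs. The log2 change was 0.59 (SE 0.27, adjusted p = 0.0617 by edgeR's quasi-likelihood test). It passed with the replicate number as a block (0.58, adjusted p = 0.0349), without embryo library 5 (0.71) or L1 library 6 (0.73), and in the edited strains, where it was 0.65 (SE 0.17). mir-785_3p likewise passed in the edited strains (0.53, SE 0.17) and in wild type with the block (0.57, adjusted p = 0.0455), but not without it (0.43, adjusted p = 0.157 by edgeR's quasi-likelihood test). Without embryo library 5, which held 336 CPM against at most 139 CPM in the other embryo libraries, mir-785_3p rose by 0.82. The wild-type log2 changes of mir-787_3p (-0.17, SE 0.25), mir-355_5p (-0.10, SE 0.32) and mir-356b_3p (-0.44, SE 0.24) did not pass, although mir-356b_3p did without embryo library 5 (-0.59). mir-356b_3p fell in the edited strains, by 0.52 (SE 0.15), and its change there was 0.29 under spike-in scaling.

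The ratio of the 2 arms of a gene within a library does not use the scaling factors. It was examined in the 10 member genes with enough counts on both arms, as log2 of 5p over 3p counts with 0.5 added to each. Where an arm has few counts, the added 0.5 makes the ratio depend on depth. mir-1821_5p* and mir-1829b_5p had at least 10 counts in 28 and 33 of the 42 libraries. In mir-4813 the ratio was 1.08 ± 1.10 (SD, n = 6) in wild-type embryos and -3.00 ± 1.37 (SD, n = 6) in L1. In wild type the 5p arm was thus the more counted in every embryo library and the 3p arm in every L1 library, a difference of -4.07 without overlap (exact two-sided permutation test, p = 0.00216, the smallest that regrouping 6 against 6 libraries allows, adjusted p = 0.00712 over 79 genes). In the edited strains the stages overlapped, with a lowest embryo ratio of -0.04 and a highest L1 ratio of 1.33.

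mir-1821 and mir-1829b also passed, with differences of -2.26 (adjusted p = 0.0165, exact permutation test) and -1.51 (adjusted p = 0.0201, exact permutation test), both with overlapping stages. These were 3 of 10 member genes, where 49.4% of all 79 genes passed. The wild-type libraries were then paired by replicate number. An exact permutation within the 6 pairs, added after seeing the data, gave p = 0.0312 for mir-4813 and mir-1829b, lower in L1 in 6 of 6 pairs. mir-1829a had the same p by that permutation, with a ratio higher in L1 in 6 of 6 pairs, by a mean of 1.06. For mir-1821, lower in 5 of 6, that permutation gave p = 0.0625. The smallest p that 6 pairs allow is 0.0312, and after adjustment over the 79 genes none of the 79 passed this permutation test. The adjusted values were 0.0686 for mir-4813, mir-1829b and mir-1829a and 0.103 for mir-1821. In the edited strains 8 of 10 passed, where 68.4% of all genes did, and the same 3 had the same sign there, at -3.35 for mir-4813, -2.45 for mir-1821 and -1.19 for mir-1829b. In the edited strains mir-1829a moved the other way, by 1.48 toward the 5p arm, and mir-790 by 1.46.

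**Figure D4:**
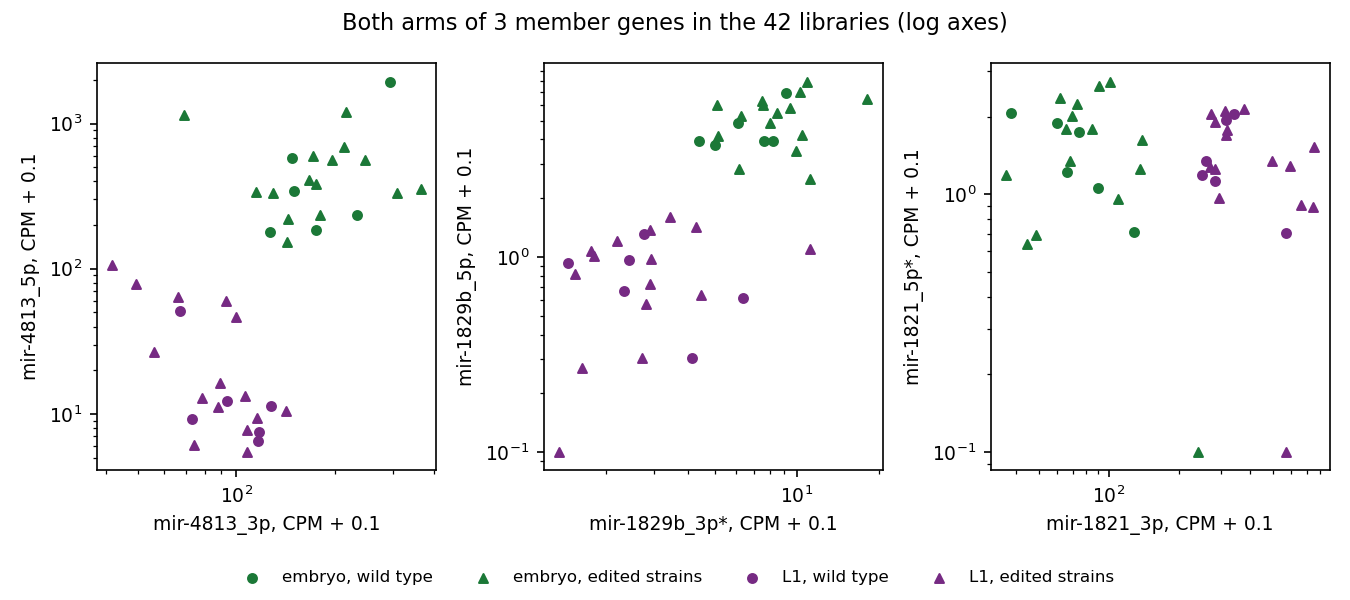
CPM plus 0.1 of the 5p arm against the 3p arm of mir-4813, mir-1829b and mir-1821 in the 42 libraries on log axes, embryos in green and L1 in purple, wild type as circles and edited strains as triangles. For mir-4813 the embryo and L1 points separate mainly along the 5p axis, with wild-type medians of 288 and 10.2 CPM, while the 3p medians are 163 and 105 CPM.

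Between each edited strain and wild type at the same stage, 3 calls were made over 10 comparisons, all of them in mir-82_3' L1. There 3 of 59 members were higher, 5.08% against 3.49% of all arms. mir-1819_3p was at 54.5, 12.6 and 34.5 CPM in the 3 mir-82_3' L1 libraries and at 8.12, 12.4 and 13.6 CPM (lowest, median, highest of 6) in wild-type L1. Its second library lay within the wild-type range, and the log2 change was 1.54 (SE 0.39, adjusted p = 0.0240 by edgeR's quasi-likelihood test). mir-1832a_3p had a log2 change of 2.5 (adjusted p = 0.0456 by edgeR's quasi-likelihood test), with 28.4 CPM in mir-82_3' L1 library 1 and 1.58 and 2.35 CPM in the other libraries. mir-796_5p had 1.58 (adjusted p = 0.0456 by edgeR's quasi-likelihood test), with 136 CPM in the same library and 19.4 and 13.2 CPM in the others.

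None of the 3 calls held without mir-82_3' L1 library 1, where the changes were 0.95, -0.01 and -0.25. That library has the lowest TMM factor of the 42 libraries, 0.648, and the highest share of mir-790_5p, whose part in these calls was not tested. The calls were also lost without single wild-type L1 libraries: mir-1819_3p without library 2 (1.45) or 5 (1.5), and mir-1832a_3p (2.43 to 2.55) and mir-796_5p (1.48 to 1.69) without any of libraries 1 to 5. In the other 9 comparisons, where 0.437% to 0.873% of all arms were called, edgeR's quasi-likelihood test called 0 members. At an unadjusted p under 0.05 there were at most 5 of 59 members in any of these 9, against 3 to 27 of all 229 arms. DESeq2 called 3 members over all 10 comparisons. Leaving out other libraries moved the total too, to 8 without mir-82_3' L1 library 2 and 6 without wild-type L1 library 6.

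The staged libraries resolve the embryo into 3 stages. The members' share of miRNA counts was 0.138% and 0.204% in the 2 wild-type libraries of the 2-8 cell stage, 0.242% and 0.346% at comma, 0.587% and 0.624% at pretzel and 0.769% and 0.878% in starved L1. In the ebax-1 null strain it was 0.148% and 0.187%, 0.217% and 0.308%, 0.423% and 0.789%, and 0.562% and 0.600%. In wild type each stage lay above the one before it, and in the ebax-1 null the pretzel and L1 ranges overlapped. Without both arms of mir-790 the wild-type share was 0.512% and 0.315% at pretzel and 0.476% and 0.337% in starved L1, so that these stages overlapped. The mir-35 family held 32.7% and 47.6% of wild-type counts at the 2-8 cell stage and 5.51% and 2.57% in starved L1. Its part in the members' share was not tested. At 2 libraries per group the staged tests were coarse, with a biological coefficient of variation of 1.04 against 0.453 in the first experiment, and 42 of 86 members could be tested.

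From the 2-8 cell stage to starved L1 in wild type, 6 members rose and 5 fell, 26.2% of 42 against 33.8% of the 198 arms tested. In the ebax-1 null 2 rose and 1 fell, 7.14% against 11.1% of all arms. The counts rest on few libraries. In wild type 6 members were called without 2-8 cell library 2, 7 without L1 library 1 and 2 without L1 library 2, and 1 when the 2 groups were fitted alone. For the ebax-1 null 5 were called without 2-8 cell library 1. The scalings moved the median of all arms in the wild-type comparison in opposite directions, by -0.76 on the log2 scale with DESeq2's size factors and by 0.70 with spike-ins. Under spike-in scaling 7 members rose and 2 fell in wild type, where 51 of all 198 arms rose and 15 fell. The wild-type falls of mir-1829b_3p* (adjusted p = 0.0583), mir-786_3p (0.0542) and mir-4808_3p (0.0703) and the ebax-1 null fall of mir-1829a_5p (0.0998) were then not called by edgeR's quasi-likelihood test.

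mir-790_5p had the firmest staged change. In wild type its level was 99.9 and 120 CPM at the 2-8 cell stage, 289 and 704 CPM at comma, 573 and 3702 CPM at pretzel and 3597 and 4047 CPM in starved L1. Its levels in the ebax-1 null were 53.7 and 3.99 CPM, 355 and 203 CPM, 1312 and 2789 CPM, and 1897 and 2401 CPM. Every L1 library lay above every 2-8 cell library. The log2 change was 5.12 (SE 1.10, adjusted p = 0.000727 by edgeR's quasi-likelihood test) in wild type and 6.19 (SE 1.16, adjusted p = 0.000205 by edgeR's quasi-likelihood test) in the ebax-1 null. Both calls held with each library left out, at 3.54 to 4.44 and 5.32 to 7.97, and under the other scalings, with the lowest value 3.39 for wild type.

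mir-1821_3p had 0 counts in both wild-type 2-8 cell libraries, 224 and 75 counts at comma, 176 and 183 at pretzel and 936 and 367 in starved L1. Starved L1 was at least 190-fold higher than the 2-8 cell stage (adjusted p = 0.00341 by edgeR's quasi-likelihood test), with 3 counts over the group as the floor. This call held with each library left out but not when the compared groups were fitted alone (adjusted p = 0.0783 by edgeR's quasi-likelihood test). In the embryo-to-L1 comparison of the first experiment the arm was also higher in L1. Comma was at least 43.2-fold higher than the 2-8 cell stage, a call lost without 2-8 cell library 2 (adjusted p = 0.0559) and in a fit of both groups alone (adjusted p = 0.0653), both by edgeR's quasi-likelihood test.

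The other wild-type rises to L1 did not hold up with each library left out. mir-1820_5p rose from 179 and 54.0 CPM to 1257 and 1063 CPM, a log2 change of 3.32 (adjusted p = 0.0215 by edgeR's quasi-likelihood test) that was 1.87 to 2.97 and uncalled when any of the 4 libraries was left out. mir-787_3p rose from 214 and 29.5 CPM to 1173 and 1221 CPM at comma (log2 change 3.30), then stayed near that level, with 893 and 935 CPM in L1 (2.91). Its L1 call held without 2-8 cell library 1 alone, and its comma call was lost without 2-8 cell library 2 (2.53). mir-1819_3p and mir-791_5p* had 0 counts at the wild-type 2-8 cell stage and were at least 27.3-fold and 72.0-fold higher in wild-type L1. The call of mir-1819_3p was lost without any library, and that of mir-791_5p* without either 2-8 cell library or L1 library 2. In the ebax-1 null both arms had 0 counts in both starved L1 libraries. At the 2-8 cell stage of that strain mir-1819_3p had 16 and 0 counts, and mir-791_5p* had 0 in both libraries.

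The 3p arms of mir-1829b and mir-1829c fell from the 2-8 cell stage to starved L1 in wild type. mir-1829b_3p* stood at 57.1 and 56.0 CPM at the 2-8 cell stage, 16.5 and 13.2 CPM at comma, 4.96 and 0.611 CPM at pretzel and 0 in both starved L1 libraries of wild type. The ebax-1 null values were 129 and 93.8 CPM, 14.6 and 12.3 CPM, 9.30 and 4.86 CPM, and 0 in both. No library of a stage reached the level of the stage before it in either strain. In wild type L1 was at least 64.6-fold lower for mir-1829b_3p* (adjusted p = 0.0229 by edgeR's quasi-likelihood test) and at least 82.9-fold lower for mir-1829c_3p* (adjusted p = 0.0196 by edgeR's quasi-likelihood test). Both calls were lost without L1 library 1 or 2 (adjusted p = 0.0506 to 0.0849 by edgeR's quasi-likelihood test). At 0 counts in the L1 libraries, these arms were not detectable at this depth.

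mir-786_3p was highest at the 2-8 cell stage, with 98 and 44 counts in wild type and 331 and 59 in the ebax-1 null. It had 36 and 0 counts at comma, 7 and 2 at pretzel and 1 and 0 in starved L1 of wild type, and 0 and 1, 19 and 62, and 0 and 2 in the ebax-1 null. The wild-type ratio of L1 to 2-8 cell was 0.00309 (95% interval 7.8e-05 to 0.0175, covering counting error only). That call was lost without L1 library 2 (adjusted p = 0.1 by edgeR's quasi-likelihood test). From 2-8 cell to comma it fell in the ebax-1 null, a call lost without either comma library. In the first experiment the arm lay between 0.478 and 5.52 CPM in wild-type embryos and 0 and 2.85 CPM in L1. Its neighbour mir-240_3p had a wild-type log2 change of -0.38 (SE 0.31) in that experiment.

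Both remaining wild-type falls were the least firm. mir-4808_3p had 4 and 39 counts at the 2-8 cell stage and none in starved L1, at least 32.7-fold lower, a call lost without 2-8 cell library 2 or either L1 library. Between these stages it had 185 and 91 counts at comma and 35 and 189 at pretzel. In the ebax-1 null mir-4808_3p went the other way, with 0 and 9 counts at the 2-8 cell stage and 1 and 108 in starved L1. In wild type mir-4813_5p had 37 and 0 counts at the 2-8 cell stage, 518 and 62 at comma, 92 and 23 at pretzel and 0 in both L1 libraries. The stages overlapped at 0, and the L1 call was lost without 2-8 cell library 1 or L1 library 2. In the ebax-1 null, mir-1829a_5p had 100 and 43 counts at the 2-8 cell stage and 0 in L1, at least 68.7-fold lower, a call lost without either L1 library. mir-1820_5p rose there by 4.08 on the log2 scale, a call lost without 2-8 cell library 2 (3.42).

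**Figure D5:**
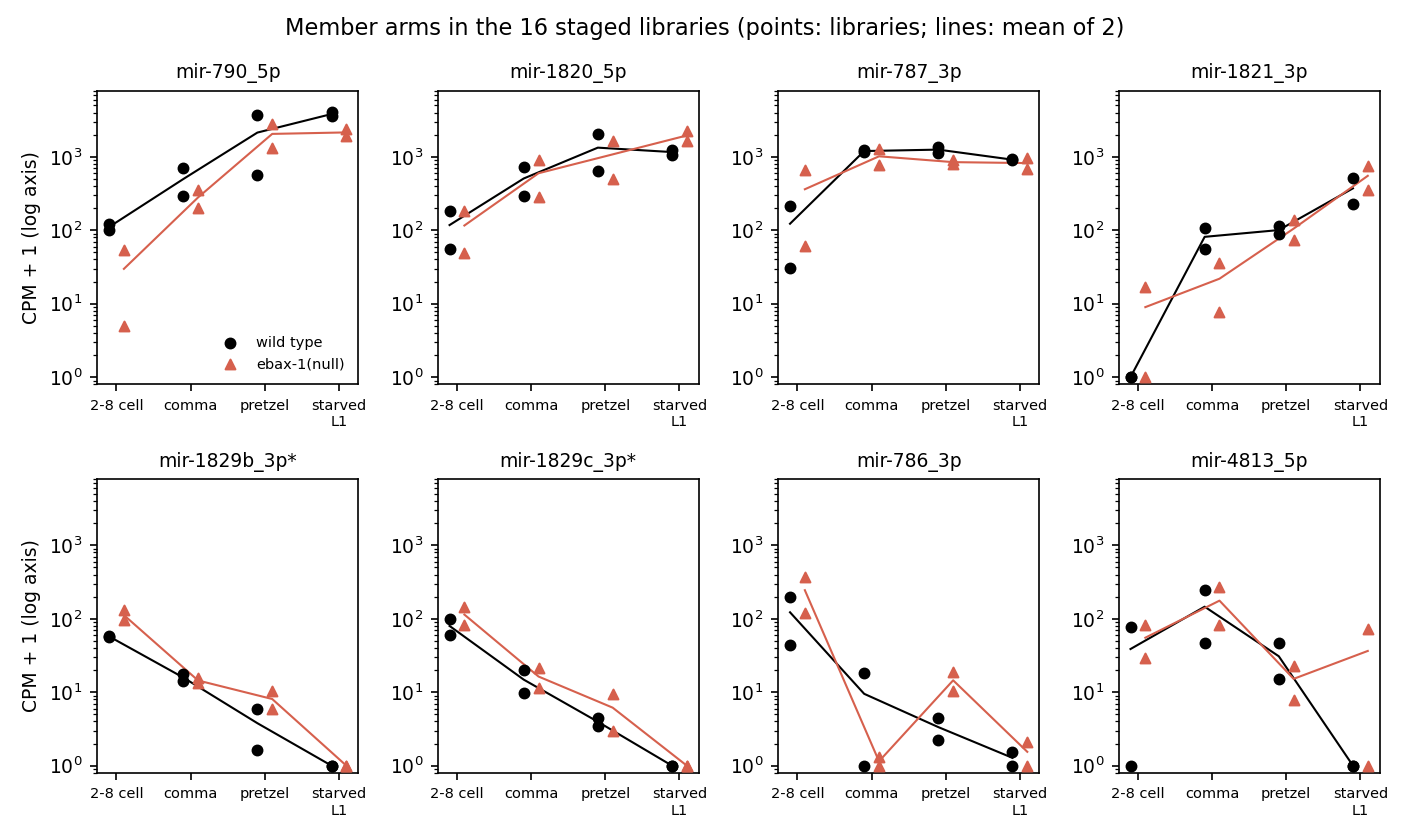
CPM plus 1 on a log axis of 8 members in the 16 staged libraries, wild type in black and the ebax-1 null in red, with points for libraries and lines through the mean of 2. mir-790_5p climbs from at most 120 CPM at the 2-8 cell stage to at least 1897 CPM in starved L1, and mir-1829b_3p* goes from at least 56.0 CPM to 0.

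From 2-8 cell to comma, 3 members rose in wild type (7.14% against 21.7% of all arms), and in the ebax-1 null mir-790_5p rose by 3.24 and mir-786_3p fell under TMM scaling (4.76% against 10.1% of all arms). The ebax-1 null call of mir-790_5p was lost without 2-8 cell library 2 (2.37). From comma to pretzel and from pretzel to L1 edgeR's quasi-likelihood test called 0 members in either strain, against 0% to 0.505% of all arms. At an unadjusted p under 0.05 there were 2 to 6 of 42 members in these steps, against 17 to 28 of all 198 arms. DESeq2 called 0 to 3 members. In wild type no member was called from 2-8 cell to comma without 2-8 cell library 2.

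No member was called between the ebax-1 null and wild type over the 4 stages. edgeR's quasi-likelihood test called 0 of 42, against 1.01% of all arms. At an unadjusted p under 0.05 there were 0 members, against 18 of all 198 arms, and DESeq2 called 0 members. For the difference between the strains in the change from 2-8 cell to L1, edgeR called 0 members, against 0% of all arms, and DESeq2 3. At an unadjusted p under 0.05 there were 5 members, against 26 of all 198 arms. The rises of mir-2210_3p and mir-784_5p could not be followed here: mir-2210_3p had counts in 4 of 16 libraries, 149 in wild-type L1 library 2, 133 in ebax-1 null L1 library 2 and 18 and 13 at the 2-8 cell stage of the ebax-1 null. mir-784_5p had 6 counts in wild-type 2-8 cell library 1, 4 in ebax-1 null L1 library 1 and none elsewhere.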

How the data were processed

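Per the labels' protocols and the submitters' processing notes, total RNA was made into small RNA libraries, and the tools named are HTSeq 0.13.5, Bowtie2 2.4.4, DESeq2, cutadapt 3.4 and SAMtools 1.13. The genome build and annotation are not given in the sources used here. The authors deposited 1 table of estimated counts (expected counts) per miRNA arm, with 296 lines, 10 of them spike-ins and 10 edited mir-35 alleles. Some values end in 0.5, among them 22 in 8 member arms, and were rounded to whole numbers.

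Each experiment was fitted in edgeR 4.0.16 (quasi-likelihood, robust, TMM factors, limma 3.58.1, R 4.3.3), keeping arms with at least 10 counts in enough libraries and 15 in total, 229 of 276 in 42 libraries and 198 in 16. Edited strains took their own mir-35 allele's counts. p-values were Benjamini-Hochberg adjusted over all arms tested, with a threshold of 0.05. Arm ratios were compared by exact permutation, or 100000 permutations for the edited strains. Alternatives were DESeq2 1.42.0, other scalings and filters, a replicate block, a fit of the compared groups alone, and leaving libraries out. Settings without runs 4 and 6 and without staged libraries under 500000 counts, and the arm-ratio test within wild-type pairs, were added after seeing the data. The fits were tested on simulated data.

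Same-numbered wild-type embryo and L1 libraries deviated together (correlations 0.185 to 0.41 in 6 of 6 pairs). They were therefore also treated as pairs, in the replicate block and in the arm-ratio test within pairs. The labels give replicate numbers but do not say that these pair the libraries.

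The members and lists were chosen with earlier results of these data known. Named arms are both arms of mir-1821, mir-1829a to mir-1829c, mir-2210 and mir-4813, the 10 with the highest mean share, up to 10 rises and 10 falls called in wild type and edited strains, and up to 5 called each way in the other comparisons. Arms named outside this rule (mir-789-2_5p, mir-2208b_5p, mir-392_5p*, mir-1823_3p, mir-4812_5p, mir-4814_5p* and those at 0) were chosen after their values were seen. Gene positions and neighbours come from the Ensembl annotation of WBcel235, which names all 43 genes, and no coordinates are printed. Plots used Python 3.11.15 with matplotlib 3.10.9.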

Additional observations from a re-analysis of the deposited data

Results flagged for a closer look

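In 78 groups of wild-type libraries examined, 17 held a library far from the other 5. The limit used would flag about 1 group in 20 by chance if values were normally distributed, which was not examined. The groups reuse the same libraries, so the 17 are not independent. Of the 17, 6 lie in embryo library 5 and 6 in L1 library 6. No explanation was tested.

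Embryo library 5 stood highest for mir-4813_5p at 1946 CPM (others 180 to 580), mir-785_3p at 336 CPM (84.2 to 139), mir-1819_3p at 30.6 CPM (9.33 to 15.6), mir-4808_3p at 57.7 CPM (10.3 to 27.0) and mir-1832a_3p at 16.3 CPM (1.09 to 5.37). It stood lowest for mir-356b_3p at 55.8 CPM (118 to 145). It has a TMM factor of 0.689, 1 of 3 under 0.75 among the 42 libraries.

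L1 library 6 stood highest for mir-790_5p at 12370 CPM (1334 to 2658), for mir-790_5p as a share of the members' counts at 77.2% (19.7% to 34.8%) and for the members' share of miRNA counts at 1.54% (0.808% to 1.04%). It was also highest for mir-1821_3p at 571 CPM (250 to 343) and mir-4813_5p at 51.4 CPM (6.42 to 12.1), and had mir-786_3p at 0 (1.80 to 2.85 CPM).

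Of the other 5, embryo library 2 was highest for mir-1829b_5p at 6.84 CPM (3.64 to 4.79) and mir-791_5p* at 21.3 CPM (7.01 to 12.1), and embryo library 3 for mir-786_3p at 5.52 CPM (0.478 to 1.71). L1 library 3 was highest for mir-1829c_3p* at 6.29 CPM (1.45 to 3.24) and L1 library 4 for mir-789-1_3p* at 3.51 CPM (0.907 to 1.72).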

How the results depend on the processing

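Scaling moved the stage counts most. In wild type, spike-in scaling gave 20 members higher and 1 lower, library totals 16 and 10, and a minimum of 50 counts 7 higher, against 11 and 18. In the edited strains spike-in scaling gave 4 lower and a minimum of 50 counts 10 higher, against 23 and 17. Over all arms, spike-in scaling gave 82 higher and 26 lower in wild type and library totals 76 and 51, against 57 and 71. In the edited strains spike-in scaling gave 103 and 38 of all arms, against 77 and 89. The median of all arms moved by 0.98 and 0.85 with spike-ins. Under spike-in scaling mir-4813_3p turned to 0.17 in wild type, and mir-1829a_5p to 0.93, mir-1829c_5p to 0.33 and mir-356b_3p to 0.29 in the edited strains. Without runs 4 and 6 the edited change of mir-790_5p was -0.24. Leaving out each library gave 10 to 13 higher and 15 to 19 lower in wild type, 16 to 18 and 22 to 26 in the edited strains, and a share difference of 0.219 to 0.375 points.

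The 3 calls between edited strains and wild type became 1 with DESeq2's size factors in edgeR and 0 with library totals, spike-ins, no filter, the replicate block, libraries with TMM factors under 0.75 left out, runs 4 and 6 left out, or the compared groups alone, and 0 to 8 with each library left out. Without low TMM factors, or without mir-82_3' L1 library 1, mir-1832a_3p was at -0.01 and mir-796_5p at -0.25, and over all libraries left out they ran from -0.01 to 3 and from -0.25 to 2.01.

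Staged counts follow, each against the count reported. For 2-8 cell to comma in wild type (3) there were 1 with DESeq2's size factors, 1 with library totals, 6 with spike-ins, 9 with DESeq2, 8 without libraries under 500000 counts, 0 with the groups alone and 0 to 4 with each library left out. In the ebax-1 null (2) there were 6 with DESeq2, 1 with the block, 8 with the groups alone and 1 to 2 with each library left out. For 2-8 cell to L1 in wild type (11) there were 7 with no filter, 7 with a minimum of 50, 1 with the groups alone and 2 to 9 with each library left out. In the ebax-1 null (3) there were 6 with DESeq2's size factors, 6 with library totals, 8 with DESeq2, 7 without small libraries, 6 with the groups alone and 2 to 5 with each library left out. For comma to pretzel (0) there was 1 without small libraries in wild type, and in the ebax-1 null 1 with library totals, 3 with DESeq2, 1 with no filter, 2 without small libraries, 1 with the groups alone and 0 to 1 with each library left out. For pretzel to L1 (0) there were 2 with DESeq2, 2 with no filter, 2 without small libraries and 0 to 1 with each library left out in wild type, and 3 with DESeq2 in the ebax-1 null. The difference between strains in 2-8 cell to L1 (0) gave 3 with DESeq2, 7 without small libraries and 0 to 2 with each library left out, and the mean difference 0 to 1.

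Same-numbered edited or staged libraries did not deviate together in every pair (correlations -0.0549 to 0.511 over 15 pairs, and -0.168 to 0.205 over 28). With the replicate number as a block there, the changes were 0.55 for mir-790_5p in the edited strains, 1.15, 1.17 and 0.83 for the 3 mir-82_3' calls, 1 for mir-392_5p* and -0.61 for mir-4814_5p* in the edited strains, and 3.16 for mir-790_5p from 2-8 cell to comma in the ebax-1 null, none of them called. Calls were also lost for mir-1819_3p to comma and mir-4813_5p to L1 in wild type and mir-1829a_5p to L1 in the ebax-1 null (adjusted p = 0.0549, 0.0519 and 0.0543 by edgeR's quasi-likelihood test), and gained in the edited strains for mir-2208a_5p (-1.04) and mir-787_3p (-0.33). For the wild-type arm ratios, the 3 member genes called became 0 with replicate numbers as pairs. The cause of these differences was not tested. In the staged libraries 18 members had no count, and the part of depth in this was not tested.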
